A study of Homo sapiens with 21 samples.

Results

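The genes considered were EIF2AK1, EIF2AK2, EIF2AK3 and EIF2AK4, which encode the kinases HRI, PKR, PERK and GCN2, GCN1, PPP1R15A, PPP1R15B, EIF2S1 and EIF4EBP1. They were taken by gene name, and the choice was made with earlier results of these data known. All 9 were found among the 66738 genes of the count table. Each also had 1 of the 19279 merged H3K4me3 regions at its 5′ end. The cells were RS4;11, an established human B-cell precursor acute lymphoblastic leukaemia line. For 24 h they grew without asparagine but with added iron (-Asn+Fe), given as ferric nitrate at 10 µM together with the iron-carrying compound hinokitiol at 0.75 µM, or without asparagine alone (-Asn), or in complete medium (+Asn). Ferric nitrate and hinokitiol were given together, so their actions cannot be told apart, and every group was the same cell line. For each medium there were 3 RNA libraries and 3 libraries of ChIP-seq for H3K4me3, a histone mark found at active promoters.

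The initiation factor eIF2 brings the initiator tRNA to the ribosome. When a kinase phosphorylates its alpha subunit, encoded by EIF2S1, the exchange factor eIF2B is inhibited, general translation slows, and some mRNAs with upstream open reading frames are translated more. HRI responds to heme shortage and mitochondrial stress, PKR to double-stranded RNA, PERK to misfolded protein in the endoplasmic reticulum, and GCN2 to uncharged tRNA with the help of GCN1. PPP1R15A (GADD34) and PPP1R15B (CReP) bring protein phosphatase 1 to eIF2 and so remove the phosphate, and 4E-BP1, the product of EIF4EBP1, holds back cap-dependent initiation by binding eIF4E. Lymphoblastic leukaemia cells with little asparagine synthetase depend on asparagine from outside, which is why asparaginase is used against them. The values below are RNA levels and positions of a histone mark. Protein levels and phosphorylation were not measured.

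The RNA libraries summed to 29362707 to 42478518 counts. Levels are in CPM, counts scaled to the library total after TMM factors of 0.888 to 1.09, so a change is measured against most genes. With library totals in place of these factors the median of all genes moved up by 0.21 (log2) in -Asn vs +Asn and the calls became 7343 higher and 3836 lower, against 5558 and 5413 with TMM. With upper-quartile factors it moved by 0.16. No label states that a group's libraries are from separate cultures. The p-values therefore reflect the spread of these libraries alone, and that spread may be technical. Replicate 1 of -Asn stood apart in RNA: its chi-square per degree of freedom against its 2 partners was 40.7 and 45.0, and that of replicate 2 against 3 was 6.17. All 10 precursor B cell markers were expressed, at a summed 2303 to 2393 CPM in -Asn+Fe, 2580 to 2656 CPM in -Asn and 2869 to 2956 CPM in +Asn. All 5 erythroid and all 5 epithelial markers were below 1 CPM in each group, as were 4 of 5 T cell, 3 of 5 myeloid and 3 of 5 fibroblast markers. The highest of the rest were TRAC (T cell), with means of 262 CPM in -Asn+Fe, 329 CPM in -Asn and 348 CPM in +Asn, PDGFRB (fibroblast), with 23.8, 32.0 and 39.5 CPM in the same order, and CSF1R (myeloid), with 13.3, 16.6 and 9.66 CPM. The part that these marker levels have in the results was not tested. In bulk RNA, fewer cells with a transcript and less of it per cell cannot be told apart.

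Without asparagine the kinase RNAs went different ways, the RNA of PPP1R15A rose far more than that of any other of the 9 genes, and its close relative PPP1R15B showed no call. Of the 9 genes, 3 were called higher and 5 lower in -Asn vs +Asn, where 61.2% of the 17939 genes tested were called (31.0% higher and 30.2% lower). The libraries did not overlap between these groups for 8 of the 9 genes and for 65.5% of all genes. The median log2 fold change was -0.36 over the 9 genes and 0.04 over all genes tested. Against -Asn, -Asn+Fe had 3 of the 9 called, all higher, where 30.8% of genes were called, 2506 genes higher and 3019 lower. Against +Asn, -Asn+Fe had all 9 called, 4 higher and 5 lower, where 64.7% of genes were called (32.9% higher and 31.9% lower), and all 9 were free of overlap, as were 70.6% of genes. Most genes passed the same tests against +Asn. Only in -Asn+Fe vs -Asn was the share of the 9 that was called close to that of all genes. The 9 were chosen with earlier results of these data known, so these shares are a description and not a test. The comparisons share the libraries of a medium, so their counts are not independent.

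**Figure D1:**
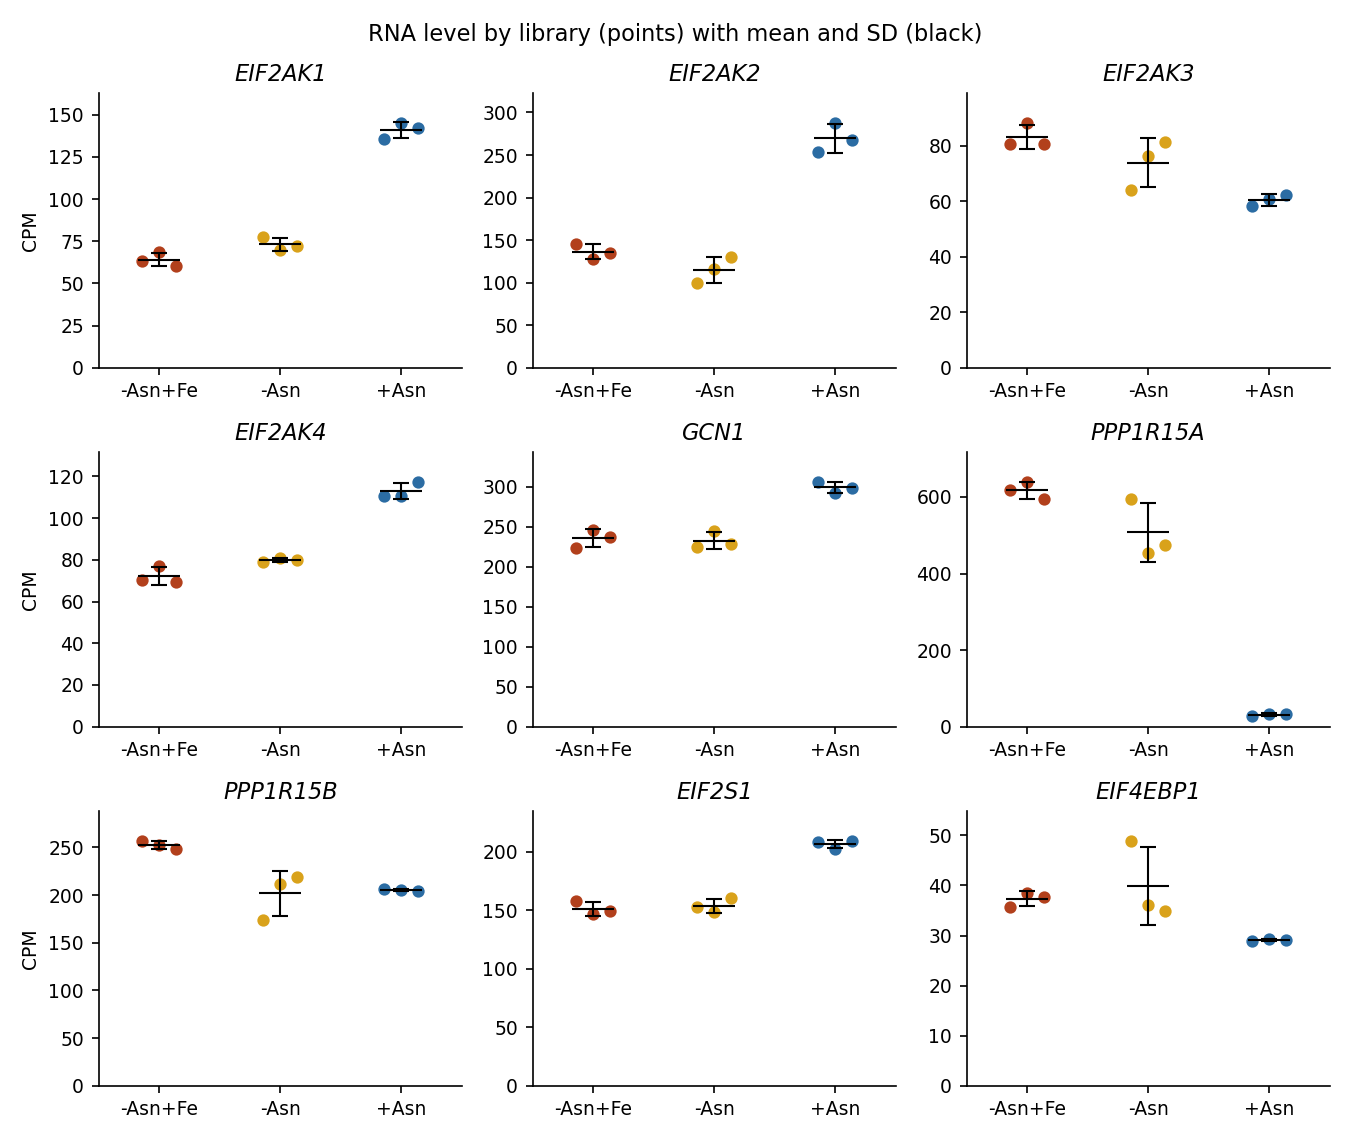
RNA level (CPM, linear axis from 0) of each of the 9 genes in each library of -Asn+Fe, -Asn and +Asn. Points are libraries, black bars the mean and SD of 3 libraries. PPP1R15A had at least 454 CPM in every -Asn and -Asn+Fe library and at most 34.0 CPM in +Asn, while EIF2AK1, EIF2AK2, EIF2AK4, GCN1 and EIF2S1 were highest in +Asn.

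GCN2 and its partner had less RNA without asparagine. EIF2AK4 (ENSG00000128829.12, chromosome 15, 39934115 to 40035591 of hg38) had 70.1, 77.3 and 69.4 CPM in -Asn+Fe, 78.9, 80.9 and 79.9 CPM in -Asn, and 111, 110.5 and 117 CPM in +Asn. Every library without asparagine was below every +Asn library, and the -Asn+Fe libraries were all below those of -Asn. The log2 fold change was -0.50 (SE 0.0663, adjusted p = 5.68e-06) in -Asn vs +Asn and -0.64 (SE 0.0666, adjusted p = 2.49e-07) in -Asn+Fe vs +Asn. Between -Asn+Fe and -Asn it was -0.15, with a 95% interval of -0.29 to -0.0043 and an adjusted p of 0.11, so the separation of the libraries did not pass the test. Such separation was seen in 43.2% of all genes in that comparison.

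GCN1 (chromosome 12, 120127202 to 120194715), whose product sits on ribosomes and is needed for GCN2 activation, had 224, 246 and 237 CPM in -Asn+Fe, 225, 244 and 229 CPM in -Asn, and 306, 293 and 299 CPM in +Asn. The libraries of -Asn+Fe and -Asn overlapped, and both groups lay below +Asn. Its log2 fold change was -0.36 in -Asn vs +Asn (SE 0.0662, adjusted p = 0.000153), -0.34 in -Asn+Fe vs +Asn (adjusted p = 0.000236) and 0.02 in -Asn+Fe vs -Asn (adjusted p = 0.855). The fall depended on the scaling: with library totals it was -0.16 (adjusted p = 0.0597) in -Asn vs +Asn and -0.09 (adjusted p = 0.265) in -Asn+Fe vs +Asn, and with upper-quartile factors the second was -0.13 (adjusted p = 0.0857).

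The RNAs of HRI and PKR fell most among the kinases. EIF2AK1 (chromosome 7, 6022247 to 6059175) had 63.4, 68.4 and 60.4 CPM in -Asn+Fe, 77.6, 69.7 and 72.0 CPM in -Asn, and 136, 145 and 142 CPM in +Asn. The 3 groups did not overlap, in the order -Asn+Fe, -Asn, +Asn. It fell to 0.518 of the +Asn level in -Asn (log2 -0.95, SE 0.0707, adjusted p = 5.47e-09) and to 0.454 of it in -Asn+Fe (log2 -1.14, SE 0.0712, adjusted p = 4.3e-10). The step between -Asn+Fe and -Asn was -0.19 (95% interval -0.34 to -0.04) and missed the threshold at an adjusted p of 0.052. It passed in 3 of 17 other settings: with DESeq2 (adjusted p = 0.0463), without -Asn replicate 2 (0.045) and without -Asn+Fe replicate 2 (0.0463). Of the 5492 exon bases of EIF2AK1, 532 are also exon of AIMP2 on the opposite strand.

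EIF2AK2 (chromosome 2, 37099210 to 37157065) had 146, 128 and 135 CPM in -Asn+Fe, 99.0, 116 and 129.9 CPM in -Asn, and 253, 288 and 268 CPM in +Asn. The +Asn libraries lay far above the rest, while those of -Asn+Fe and -Asn overlapped. It fell 2.34-fold in -Asn vs +Asn (log2 -1.23, SE 0.0911, adjusted p = 5.04e-09) and 1.98-fold in -Asn+Fe vs +Asn (log2 -0.98, adjusted p = 5.94e-08). Against -Asn, it was called higher in -Asn+Fe (log2 0.25, SE 0.0903, adjusted p = 0.0487). That call was lost in 10 of 17 other settings, with DESeq2 (adjusted p = 0.0547), with the 6 libraries compared (0.0725), under the replicate block (0.0536), and without each single library of +Asn, -Asn replicate 1 or 2, or -Asn+Fe replicate 1 or 3 (0.051 to 0.163).

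PERK was the kinase whose RNA rose. EIF2AK3 (chromosome 2, 88556740 to 88627464) had 80.6, 88.2 and 80.5 CPM in -Asn+Fe, 63.9, 76.2 and 81.2 CPM in -Asn, and 58.2, 60.7 and 62.3 CPM in +Asn. Each library without asparagine was above each +Asn library, by little in -Asn replicate 1. The log2 fold change was 0.29 (SE 0.0832, adjusted p = 0.00645) in -Asn vs +Asn, 0.46 (SE 0.0833, adjusted p = 0.00013) in -Asn+Fe vs +Asn and 0.17 (95% interval -0.0045 to 0.35, adjusted p = 0.131) in -Asn+Fe vs -Asn. The last passed with upper-quartile factors (adjusted p = 0.0442) and without -Asn replicate 3 (0.0312). Of its 5470 exon bases, 781 are shared with a long noncoding RNA on the other strand.

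The promoter windows of PKR and PERK are shown because these kinases moved in opposite directions. They run from 250 bases before to 50 bases after the RefSeq start (GRCh38.p14), 5′ to 3′ in the direction of the gene, with the motifs searched in capitals.
EIF2AK2, chr2:37156931-37157230, - strand: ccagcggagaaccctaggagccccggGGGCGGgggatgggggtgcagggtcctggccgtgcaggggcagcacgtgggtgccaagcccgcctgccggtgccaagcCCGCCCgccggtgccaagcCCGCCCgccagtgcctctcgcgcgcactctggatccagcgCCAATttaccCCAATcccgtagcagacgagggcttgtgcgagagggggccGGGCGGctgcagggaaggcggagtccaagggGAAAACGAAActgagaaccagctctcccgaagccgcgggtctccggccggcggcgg
EIF2AK3, chr2:88627415-88627714, - strand: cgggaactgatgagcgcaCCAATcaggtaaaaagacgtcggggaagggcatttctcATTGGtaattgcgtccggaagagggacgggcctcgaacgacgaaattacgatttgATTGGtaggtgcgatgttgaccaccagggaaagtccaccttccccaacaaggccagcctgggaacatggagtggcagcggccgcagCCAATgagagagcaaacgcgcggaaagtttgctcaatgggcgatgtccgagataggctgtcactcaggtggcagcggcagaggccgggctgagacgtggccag
The motifs were TGATGNAA (C/EBP-ATF response element core), TTGCATCA (amino acid response element core), TGACGTCA (cAMP response element), GAAA, any 2 letters, GAAA (interferon-stimulated response element core), CCAAT and GGGCGG (GC box), on both strands. They were held by 3.62%, 0.866%, 1.85%, 3.57%, 34.6% and 45.0% of 35116 RefSeq windows of the same length, in that order. The EIF2AK2 window held GAAAACGAAA across the start, at -6 to 4, with 2 CCAAT and 4 GC boxes. The EIF2AK3 window held 4 CCAAT matches, at -232, -194, -139 and -53, and none of the others. The start used by RefSeq was 85 bp from the 5′ end in the count table for EIF2AK2 and the same base for EIF2AK3. A match is a description of letters, and no binding was measured.

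The substrate of all the kinases had less RNA without asparagine. EIF2S1 (chromosome 14, 67360328 to 67386516) had 157, 147 and 149 CPM in -Asn+Fe, 153, 148 and 160.5 CPM in -Asn, and 208, 202 and 209 CPM in +Asn. The groups without asparagine overlapped each other and not +Asn. It fell 1.34-fold in -Asn vs +Asn (log2 -0.42, SE 0.0638, adjusted p = 2.14e-05) and 1.37-fold in -Asn+Fe vs +Asn (log2 -0.45, adjusted p = 9.89e-06), and in -Asn+Fe vs -Asn the log2 fold change was -0.03 (95% interval -0.16 to 0.11, adjusted p = 0.794). With library totals these falls were smaller, at log2 -0.22 and -0.20 (adjusted p = 0.00683 and 0.0123).

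The inducible and the constitutive regulator of eIF2 dephosphorylation parted. PPP1R15A (ENSG00000087074.8, chromosome 19, 48872421 to 48876058) had 618, 639 and 595 CPM in -Asn+Fe, 596, 454 and 474 CPM in -Asn, and 27.5, 34.0 and 32.7 CPM in +Asn. All 6 libraries without asparagine stood far above the 3 with it, and those of -Asn+Fe and -Asn overlapped through -Asn replicate 1. It rose 16.2-fold in -Asn vs +Asn (log2 4.02, SE 0.112, adjusted p = 3.6e-14), above 98.9% of the genes tested, and 19.7-fold in -Asn+Fe vs +Asn (log2 4.30, SE 0.114, adjusted p = 9.01e-15). Between -Asn+Fe and -Asn it was called higher by a small amount (log2 0.28, SE 0.0978, adjusted p = 0.038). That call was lost under the replicate block (adjusted p = 0.0528) and without -Asn replicate 2 or 3 or any single -Asn+Fe library (0.0627 to 0.145), and without -Asn replicate 1 it was log2 0.42 (adjusted p = 1.35e-05).

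PPP1R15B (chromosome 1, 204403381 to 204411817) had 257, 253 and 248 CPM in -Asn+Fe, 174, 212 and 219 CPM in -Asn, and 207, 206 and 204 CPM in +Asn. Here -Asn and +Asn overlapped, and -Asn+Fe lay above both. The log2 fold change was -0.03 in -Asn vs +Asn (95% interval -0.19 to 0.14, adjusted p = 0.795), a value that turned positive with library totals (0.18, adjusted p = 0.0637) and upper-quartile factors (0.13, adjusted p = 0.151). In -Asn+Fe it rose, by 0.32 against -Asn (SE 0.0784, adjusted p = 0.00495) and by 0.30 against +Asn (SE 0.0784, adjusted p = 0.00312), and these calls held in all 17 other settings.

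The promoters of this pair are shown because their RNAs differed most within a family.
PPP1R15A, chr19:48872171-48872470, + strand: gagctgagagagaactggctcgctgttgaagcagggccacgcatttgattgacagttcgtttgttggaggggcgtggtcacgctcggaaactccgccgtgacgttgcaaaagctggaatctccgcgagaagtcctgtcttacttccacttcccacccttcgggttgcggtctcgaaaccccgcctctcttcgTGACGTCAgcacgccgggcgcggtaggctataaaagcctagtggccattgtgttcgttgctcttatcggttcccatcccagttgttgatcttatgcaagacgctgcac
PPP1R15B, chr1:204411768-204412067, - strand: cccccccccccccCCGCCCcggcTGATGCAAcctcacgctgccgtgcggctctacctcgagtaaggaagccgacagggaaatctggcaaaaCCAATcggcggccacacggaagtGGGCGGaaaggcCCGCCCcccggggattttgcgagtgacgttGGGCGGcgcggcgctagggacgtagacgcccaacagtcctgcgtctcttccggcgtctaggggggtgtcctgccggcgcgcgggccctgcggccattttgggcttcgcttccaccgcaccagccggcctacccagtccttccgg
The PPP1R15A window held 1 of the motifs, the full TGACGTCA at -58 to -51. The PPP1R15B window held TGATGCAA at -227 to -220, which reads as TGATGNAA on the gene's strand and as TTGCATCA on the other, so both matches are the same letters. It also held 1 CCAAT and 4 GC boxes. For both genes the RefSeq start is the 5′ end used in the count table. Of the 9 genes, 7 had a RefSeq window. In those of EIF2AK4 and GCN1 the only matches were 4 and 1 GC boxes, and the EIF2S1 window had no match.

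The RNA of the translation repressor 4E-BP1 rose modestly. EIF4EBP1 (chromosome 8, 38030534 to 38060365) had 35.8, 38.6 and 37.8 CPM in -Asn+Fe, 48.9, 36.0 and 34.9 CPM in -Asn, and 28.9, 29.4 and 29.2 CPM in +Asn. All libraries without asparagine were above those with it, and -Asn replicate 1 was the highest of the 9. The log2 fold change was 0.45 (SE 0.105, adjusted p = 0.00128) in -Asn vs +Asn, 0.36 (SE 0.105, adjusted p = 0.00671) in -Asn+Fe vs +Asn and -0.09 (95% interval -0.31 to 0.13, adjusted p = 0.53) in -Asn+Fe vs -Asn. Without -Asn replicate 1 the first was 0.28 (adjusted p = 0.00121).

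**Figure D2:**
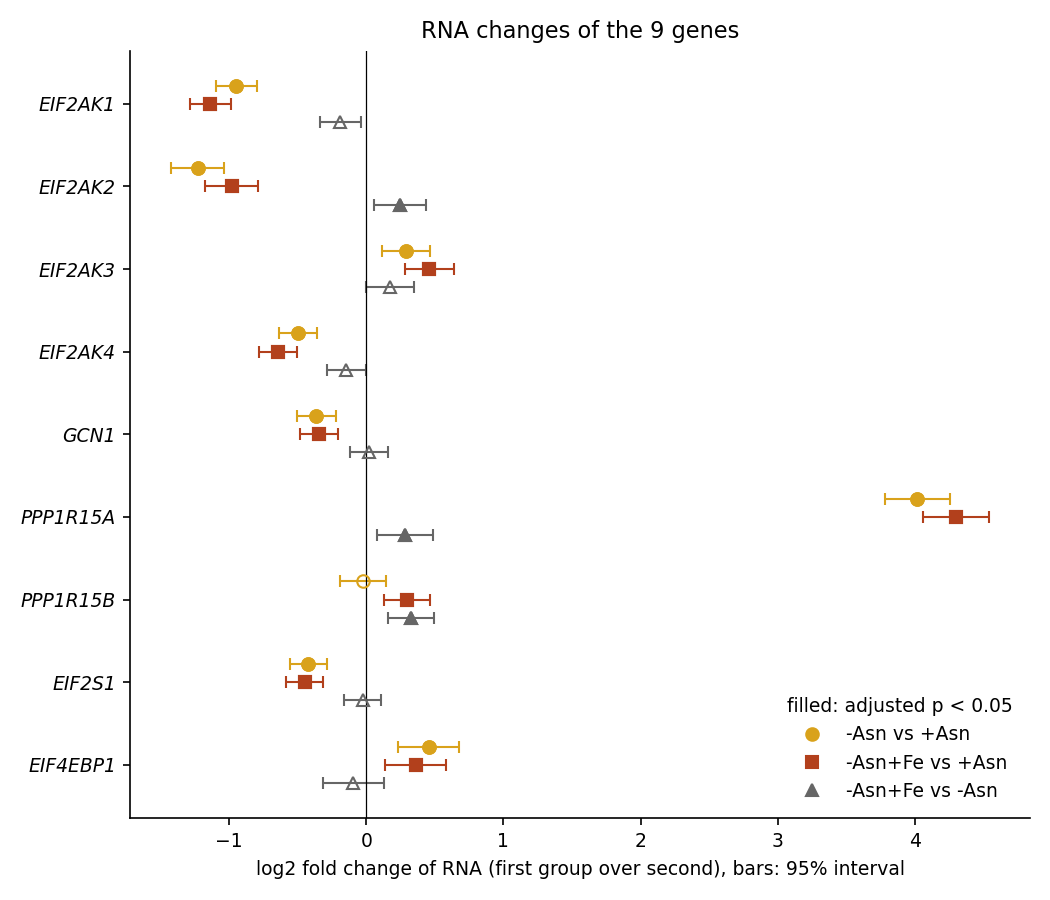
Log2 fold change of RNA (x axis) of the 9 genes in -Asn vs +Asn (circles), -Asn+Fe vs +Asn (squares) and -Asn+Fe vs -Asn (triangles), with 95% intervals, filled where the adjusted p was below 0.05. PPP1R15A stands at 4.02 and 4.30 against +Asn, the other genes lie between -1.23 and 0.46, and the iron comparison stays between -0.19 and 0.32.

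Per kilobase of exon the order of the 9 RNAs differed between media. In -Asn+Fe the highest was PPP1R15A at 201.5 ± 7.22 CPM per kb, then PPP1R15B (48.0 ± 0.853), EIF4EBP1 (42.5 ± 1.64), EIF2S1 (28.4 ± 1.06), GCN1 (24.4 ± 1.15), EIF2AK3 (15.2 ± 0.804), EIF2AK2 (12.7 ± 0.829), EIF2AK1 (11.7 ± 0.731) and EIF2AK4 (6.03 ± 0.363; SD, n = 3, as for all ± values). In this order only EIF2AK2 and EIF2AK1 overlapped as neighbours. In -Asn, PPP1R15A led at 166 ± 25.05 CPM per kb, and EIF4EBP1 (45.4 ± 8.85) overlapped PPP1R15B (38.3 ± 4.57), as EIF2AK3 (13.5 ± 1.62) did EIF2AK1 (13.3 ± 0.743). In +Asn, PPP1R15B (39.0 ± 0.269) and EIF2S1 (38.8 ± 0.701) led and overlapped, and PPP1R15A (10.2 ± 1.116 CPM per kb) was near the bottom, overlapping both EIF2AK3 (11.0 ± 0.378) and EIF2AK4 (9.42 ± 0.327). EIF2AK1 and EIF2AK2 were level with each other in +Asn, at 25.7 ± 0.896 and 25.1 ± 1.62 CPM per kb, and were the kinases with the highest level there. In -Asn+Fe the kinase with the highest level was EIF2AK3, whose 14.7 to 16.1 CPM per kb did not overlap those of the other kinases.

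For EIF2AK1, EIF2AK2 and PPP1R15A, the members with a called change of at least 1 on the log2 scale, the 3 genes closest in pattern over the 9 libraries were found among 10095 genes by the root mean square difference of centred log2 CPM. Among the 3 closest to EIF2AK1 were ANP32A (0.0531) and LAS1L (0.0532). Closest to EIF2AK2 were GNG2 (0.0429), STK26 (0.0461) and LIMS1 (0.0622). Closest to PPP1R15A were CTSG (0.0962), BIN2 (0.158) and CDC42EP3 (0.163), the first at 16.1 CPM in -Asn+Fe, 13.3 CPM in -Asn and 0.825 CPM in +Asn.

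Other genes of the pathway were read from 7 lists. Of 7 eIF2 and eIF2B subunits other than EIF2S1, 2 rose and 4 fell in -Asn vs +Asn (median log2 -0.42). Among all genes tested, 31.0% were called higher and 30.2% lower in that comparison. EIF2S2 and EIF2S3 encode the beta and gamma subunits of eIF2: EIF2S2 rose (log2 0.79, adjusted p = 1.42e-05), while EIF2S3 stood at -0.01 (adjusted p = 0.874). Of eIF2B, the exchange factor that phosphorylated eIF2 blocks, EIF2B3, EIF2B5, EIF2B1 and EIF2B4 fell (log2 -0.58, -0.50, -0.43 and -0.42) and EIF2B2 rose (0.37). With library totals 3 rose and 4 fell, EIF2S3 then being called higher (0.19, adjusted p = 0.0174). In -Asn+Fe vs -Asn, 0 rose and 2 fell, EIF2B2 (log2 -0.28) and EIF2B5 (-0.25), and with upper-quartile factors only 1 fell. EIF2B2 shares 23.6% of its exon bases with other annotated genes.

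Among 13 regulators of the kinases 4 rose and 4 fell in -Asn vs +Asn (median log2 0.13). Both counts were close to the shares of all genes tested (31.0% higher and 30.2% lower). IMPACT, an inhibitor of GCN2 activation, rose (log2 1.24, with a mean of 7.86 CPM in -Asn against 3.32 CPM in +Asn), as did HSPA5, the chaperone that keeps PERK inactive (0.51), and RPLP1, of the ribosomal stalk (0.50). MAP3K20, a kinase that senses stalled ribosomes (-1.10), PRKRA, an activator of PKR (-0.82), and ADAR, an RNA editor that limits PKR activation (-0.23), fell. The ADAR call was lost with library totals, upper-quartile factors and a stricter low-count filter (log2 -0.02, -0.07 and -0.11). Each of these settings gave 7 higher and 2 lower genes on this list. Of the 13, 2 rose and 0 fell in -Asn+Fe vs -Asn: HSPA5, whose mean was 1034 CPM in -Asn+Fe against 727 CPM in -Asn (log2 0.51, adjusted p = 4.89e-05), and DNAJC3, an inhibitor of PERK and PKR (log2 0.50, adjusted p = 0.000217).

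The catalytic subunits of protein phosphatase 1, the enzyme that PPP1R15A and PPP1R15B direct, changed less than PPP1R15A. In -Asn vs +Asn 1 of 3 was called, PPP1CC (log2 -0.34), where 61.2% of all genes tested were called. PPP1CA and PPP1CB stood at -0.10 and 0.07. With library totals PPP1CC was -0.13 and not called, and PPP1CB was called higher (0.28). PPP1CA fell with iron and hinokitiol, to a mean of 186 CPM in -Asn+Fe against 289 CPM in -Asn (log2 -0.64, adjusted p = 3.14e-05). Of its exon bases 27.5% belong to other annotated genes too.

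Of 17 genes of eIF4F, 4E-BPs and cap-binding partners, which act at the step that 4E-BP1 blocks, 4 rose and 9 fell in -Asn vs +Asn (median log2 -0.20). Of all genes tested 31.0% were called higher and 30.2% lower there. EIF4E3, a divergent cap-binding protein, rose (1.21, with a mean of 4.35 CPM in -Asn against 1.89 CPM in +Asn), as did PDCD4, an inhibitor of the helicase eIF4A (1.16), and EIF4EBP3, another 4E-BP (0.59). EIF4EBP2, the second 4E-BP, fell (-0.66), as did EIF4G2 and EIF4E2 (-0.62 and -0.61). With library totals 7 rose and 5 fell. With iron, against -Asn, 1 rose, PDCD4 (log2 0.31, adjusted p = 0.00159), and 5 fell, among them EIF4E3 and EIF4EBP3 (-0.48 and -0.45). With library totals or upper-quartile factors the count that fell was 1, and both of these calls were lost (adjusted p = 0.0571 and 0.0532 for EIF4E3, 0.0629 and 0.0636 for EIF4EBP3). EIF4EBP3 and PDCD4 share 73.2% and 29.6% of their exon bases with other annotated genes.

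Of 17 tested genes of the eIF1, eIF3, eIF5 and eIF6 list, 3 rose and 4 fell in -Asn vs +Asn (median log2 0.05). Both counts were below the shares of all genes tested (31.0% higher and 30.2% lower). EIF1, which guards start codon choice, rose (log2 1.57, adjusted p = 2.51e-10), with means of 1169.98 CPM in -Asn against 393 CPM in +Asn, and EIF6 and EIF3C rose by 0.34 and 0.29. EIF3B, EIF5 and EIF3D fell (-0.67, -0.63 and -0.23), and the EIF3D call was lost with library totals (-0.02, adjusted p = 0.812), upper-quartile factors (-0.07, 0.475) and the stricter filter (-0.11, 0.22). With library totals 11 rose and 2 fell, and with the stricter filter 9 rose and 2 fell. The direction of this list therefore depends on the scaling and on the filter. The list had 1 gene that rose in -Asn+Fe vs -Asn, EIF5, the GTPase-activating protein of eIF2 (log2 0.37, adjusted p = 0.000529), and 4 fell, among them EIF6 and EIF3I (-0.32 and -0.30). With library totals 2 fell.

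Of 6 tested genes on the list of elongation factors and eEF2 kinase, 3 rose and 1 fell in -Asn vs +Asn (median log2 0.39). Of all genes tested 31.0% were called higher and 30.2% lower there. EEF2, the translocation factor, rose (0.70). So did EEF1E1 (0.71), which is on the list but is not itself an elongation factor, and EEF1D (1.30). EEF1D had low means, of 4.94 CPM in -Asn against 2.003 CPM in +Asn. Of its exon bases 34.0% belong to other annotated genes too, so its level is uncertain. EEF2K, the kinase that inhibits EEF2, was called lower with means of 0.258 CPM in -Asn against 0.564 CPM in +Asn (log2 -1.13, adjusted p = 0.0205), a call lost with library totals (adjusted p = 0.0514). EEF1A1 stood at 0.09 and was called higher with library totals (0.29, adjusted p = 0.00219). None of the 6 was called in -Asn+Fe vs -Asn by edgeR, and EEF1E1 was called higher with library totals and upper-quartile factors (log2 0.25 and 0.26, adjusted p = 0.0474 and 0.0423). There 30.8% of all genes tested were called with TMM.

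The mRNAs with upstream open reading frames are those whose translation rises when eIF2 is phosphorylated, and PPP1R15A belongs to the same class. All 6 tested of the list rose in -Asn vs +Asn, with TMM, RLE and upper-quartile factors, library totals and the stricter filter alike (median log2 0.98 with TMM). With TMM 31.0% of all genes tested were called higher there. The log2 fold changes were 4.74 for DDIT3, 3.33 for ATF5, 1.02 for ATF4, 0.94 for IFRD1, 0.35 for SLC35A4 and 0.29 for EPRS1. Between -Asn+Fe and -Asn 2 rose, IFRD1 (0.49) and EPRS1 (0.23), and SLC35A4 fell (-0.48), while ATF4, ATF5 and DDIT3 stood at -0.09, 0.03 and 0.0013 (adjusted p = 0.485, 0.824 and 0.994). DDIT3 and ATF5 share 39.6% and 22.1% of their exon bases with other annotated genes.

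**Figure D3:**
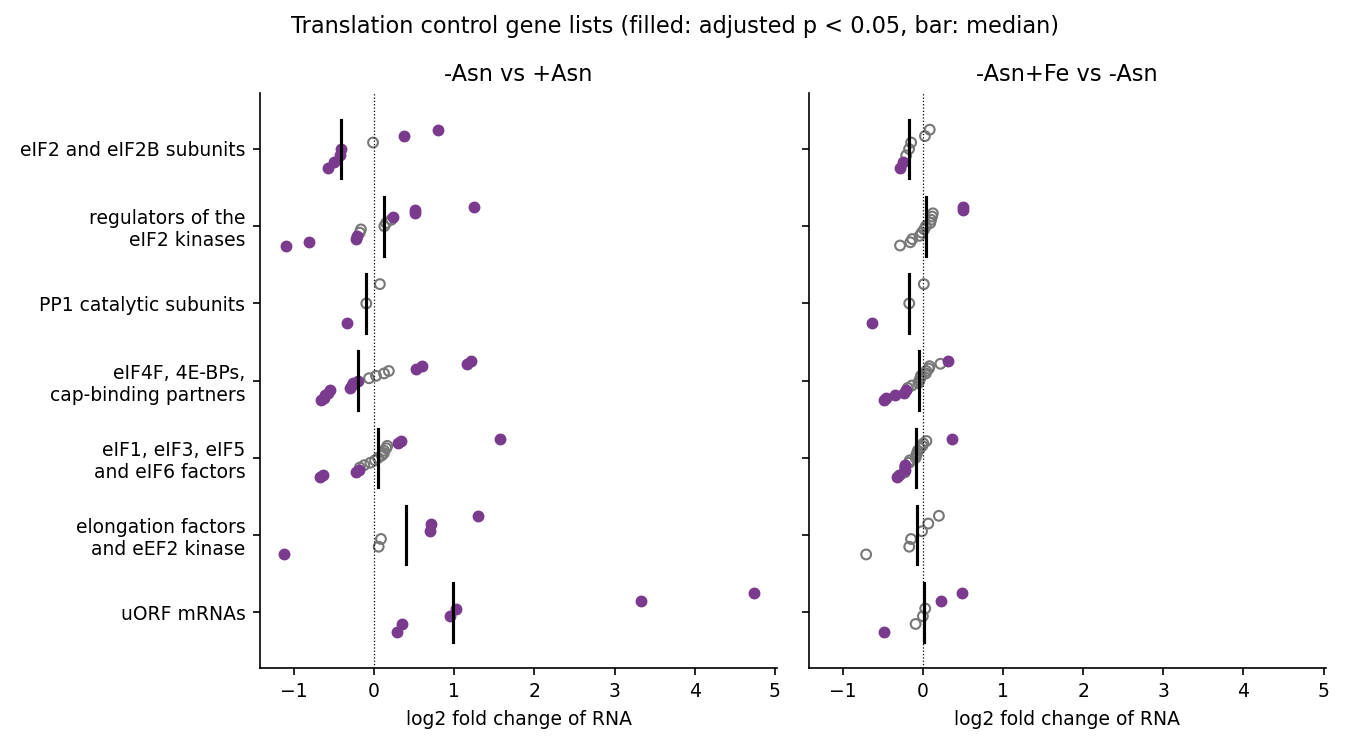
Log2 fold change of RNA of each tested gene on the 7 translation control lists (rows) in -Asn vs +Asn (left) and -Asn+Fe vs -Asn (right). Filled points had an adjusted p below 0.05 and black bars are list medians, which run from -0.42 to 0.98 on the left and from -0.17 to 0.04 on the right.

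Every one of the 9 genes carried H3K4me3 at its 5′ end in all 9 libraries, in each medium, whether its RNA rose or fell. The table gives peak positions and no heights, so the comparison was of width, the base pairs under peaks. In -Asn+Fe the widths of the 9 regions averaged 1551 bp (EIF2AK1) to 6068 bp (PPP1R15B), in -Asn 1582 bp (EIF2AK2) to 6220 bp (PPP1R15B) and in +Asn 1499 bp (EIF2AK1) to 5858 bp (PPP1R15B). Percentiles and medians of width were taken over the 13883 regions with a peak in all 9 libraries. The PPP1R15B region was wider than most of these, at the 99.0th percentile in -Asn+Fe, the 99.1th in -Asn and the 99.0th in +Asn. The regions of EIF2AK1, EIF2AK2, EIF2AK4 and GCN1 were near the median, which was 1729 bp in -Asn+Fe, 1757 bp in -Asn and 1653 bp in +Asn. The region of EIF2AK3 also holds the start of the divergent long noncoding RNA EIF2AK3-DT, and that of EIF2S1 the start of the divergent gene ATP6V1D.

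The 2 genes whose region was called wider without asparagine were PPP1R15A and EIF4EBP1, both with more RNA there. They were 2 of 9 in -Asn vs +Asn, where 16.1% of 13883 regions were called (14.7% wider and 1.43% narrower). For 4 of the 9, EIF2AK2 and PPP1R15B besides these, the libraries did not overlap between groups, as for 37.0% of regions. EIF2AK3, also called higher in RNA, had a width change of log2 0.03 by limma (adjusted p = 0.68). After centring on the library median the split over all regions was 1203 wider and 1024 narrower, against 2043 and 198 without it. Against +Asn, -Asn+Fe had 1 of 9 called, PPP1R15A, where 13.4% of regions were called (11.6% wider and 1.84% narrower), and 3 of 9 without overlap, where 37.3% of regions had none. For -Asn+Fe vs -Asn limma called 0 of the 9 and 0% of all regions, with 1046 regions (7.53%) at an unadjusted p below 0.05.

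The PPP1R15A region (chromosome 19, 48872094 to 48877040) covered 4794, 4776 and 4723 bp in -Asn+Fe, 4356, 4814 and 4574 bp in -Asn, and 2260, 2241 and 1869 bp in +Asn. The groups without asparagine overlapped each other and both were above +Asn in every library. The width rose 2.16-fold in -Asn vs +Asn (log2 1.11, SE 0.0689, adjusted p = 8.78e-06), a change that 166 regions exceeded, and 2.25-fold in -Asn+Fe vs +Asn (log2 1.17, adjusted p = 6e-06). Between -Asn+Fe and -Asn it was 0.06 (95% interval -0.10 to 0.21, adjusted p = 0.906).

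Most of the gain at PPP1R15A was in the body of the gene, and the rest lay outside it, mainly past its 3′ end. In each of the 6 libraries without asparagine 1 peak began 152 to 327 bp before the 5′ end and ran on to 4155 to 4619 bp after it, past the 3′ end of the 3638 bp gene, so that 100% of the gene lay under it. In +Asn the mark was in pieces: 1 peak from 154 to 178 bp before the 5′ end to 1141 to 1177 bp after it, another that began 3049 to 3064 bp after it, and a small additional peak in replicates 1 and 2. There 47.1% to 54.8% of the gene lay under peaks, with gaps of 1646 to 2282 bp. Measured from the outer ends of the region, gaps included, the change was log2 0.18 in -Asn vs +Asn (adjusted p = 0.0945) and 0.24 in -Asn+Fe vs +Asn (adjusted p = 0.0433), so most of the added width lay in the gaps. Whether a rise in height above the calling threshold joined the pieces cannot be read from positions.

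**Figure D4:**
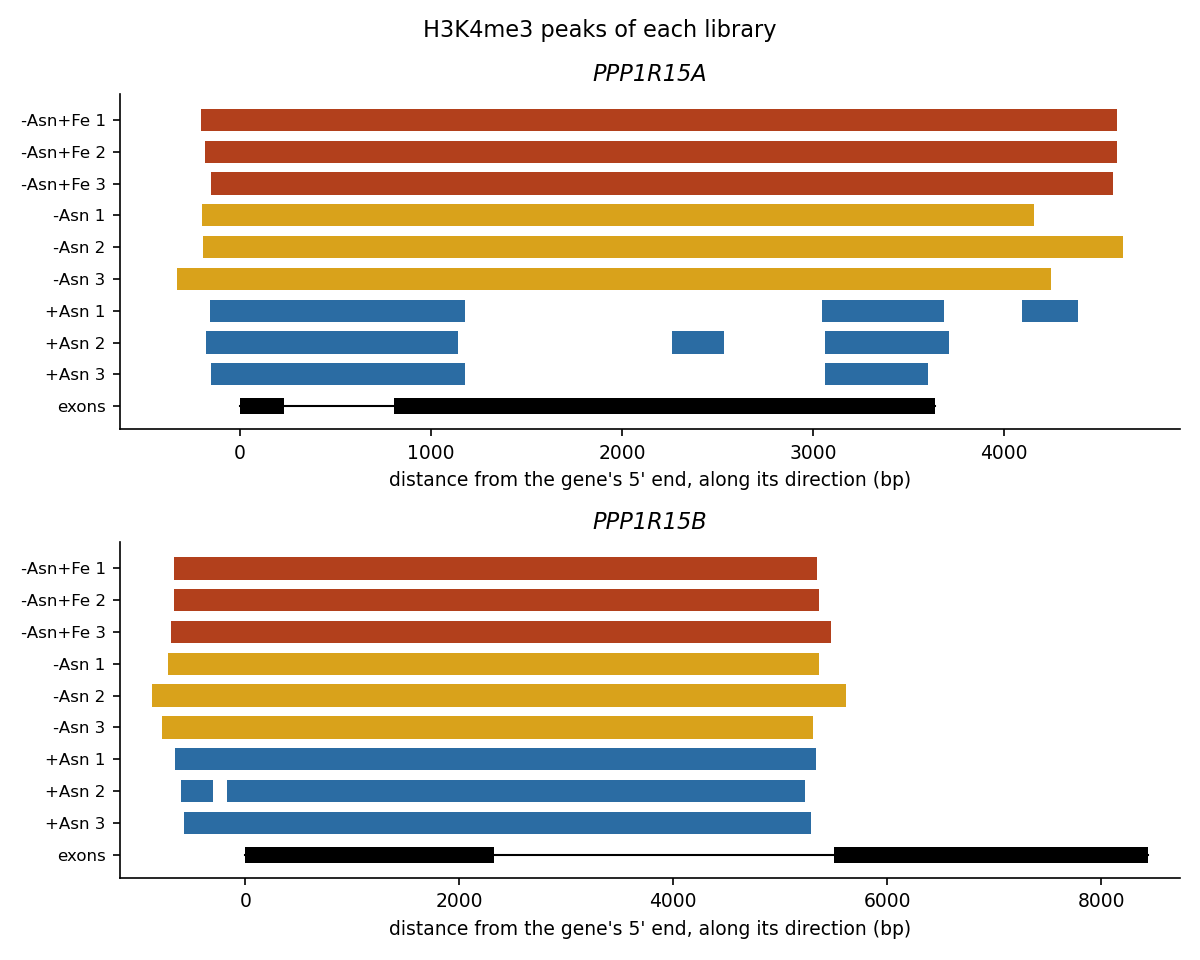
H3K4me3 peaks of each library at PPP1R15A (top) and PPP1R15B (bottom) by distance in bp from the gene's 5′ end along its direction, with exons in black. At PPP1R15A the -Asn+Fe and -Asn libraries have 1 peak over the whole gene and the +Asn libraries 2 or 3 separate peaks, while at PPP1R15B the mark reaches 5231 to 5613 bp past the 5′ end in all 9 libraries.

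At PPP1R15B the region was wide in every medium, with 6068 ± 84.1 bp in -Asn+Fe, 6220 ± 229 bp in -Asn and 5858 ± 146 bp in +Asn. Its change was log2 0.09 in -Asn vs +Asn (adjusted p = 0.142) and -0.04 in -Asn+Fe vs -Asn (adjusted p = 0.888). EIF4EBP1 had 2753 ± 118 bp in -Asn+Fe, 2798 ± 102 bp in -Asn and 2481 ± 28.99 bp in +Asn. The libraries without asparagine did not overlap +Asn, and the change was log2 0.17 (SE 0.045, adjusted p = 0.0279) in -Asn vs +Asn and 0.15 (adjusted p = 0.052) in -Asn+Fe vs +Asn. The first call was lost with centring (0.08, adjusted p = 0.157), under the replicate block (adjusted p = 0.0636) and without any single library of +Asn or -Asn replicate 2 or 3 (0.0644 to 0.0971). In -Asn vs +Asn 4139 of 13883 regions widened more than that of EIF4EBP1, and the median change of all regions was log2 0.09.

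The kinase regions kept widths that were not called different. In -Asn vs +Asn the log2 width change was 0.14 for EIF2AK1 (95% interval 0.00089 to 0.28, adjusted p = 0.152), -0.05 for EIF2AK2 (-0.18 to 0.07, adjusted p = 0.545), 0.03 for EIF2AK3 (-0.08 to 0.15, adjusted p = 0.68) and 0.03 for EIF2AK4 (-0.10 to 0.16, adjusted p = 0.726). GCN1 stood at 0.12 (adjusted p = 0.272) and EIF2S1 at 0.03 (adjusted p = 0.722). A p that misses the threshold does not show that widths were equal.

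**Figure D5:**
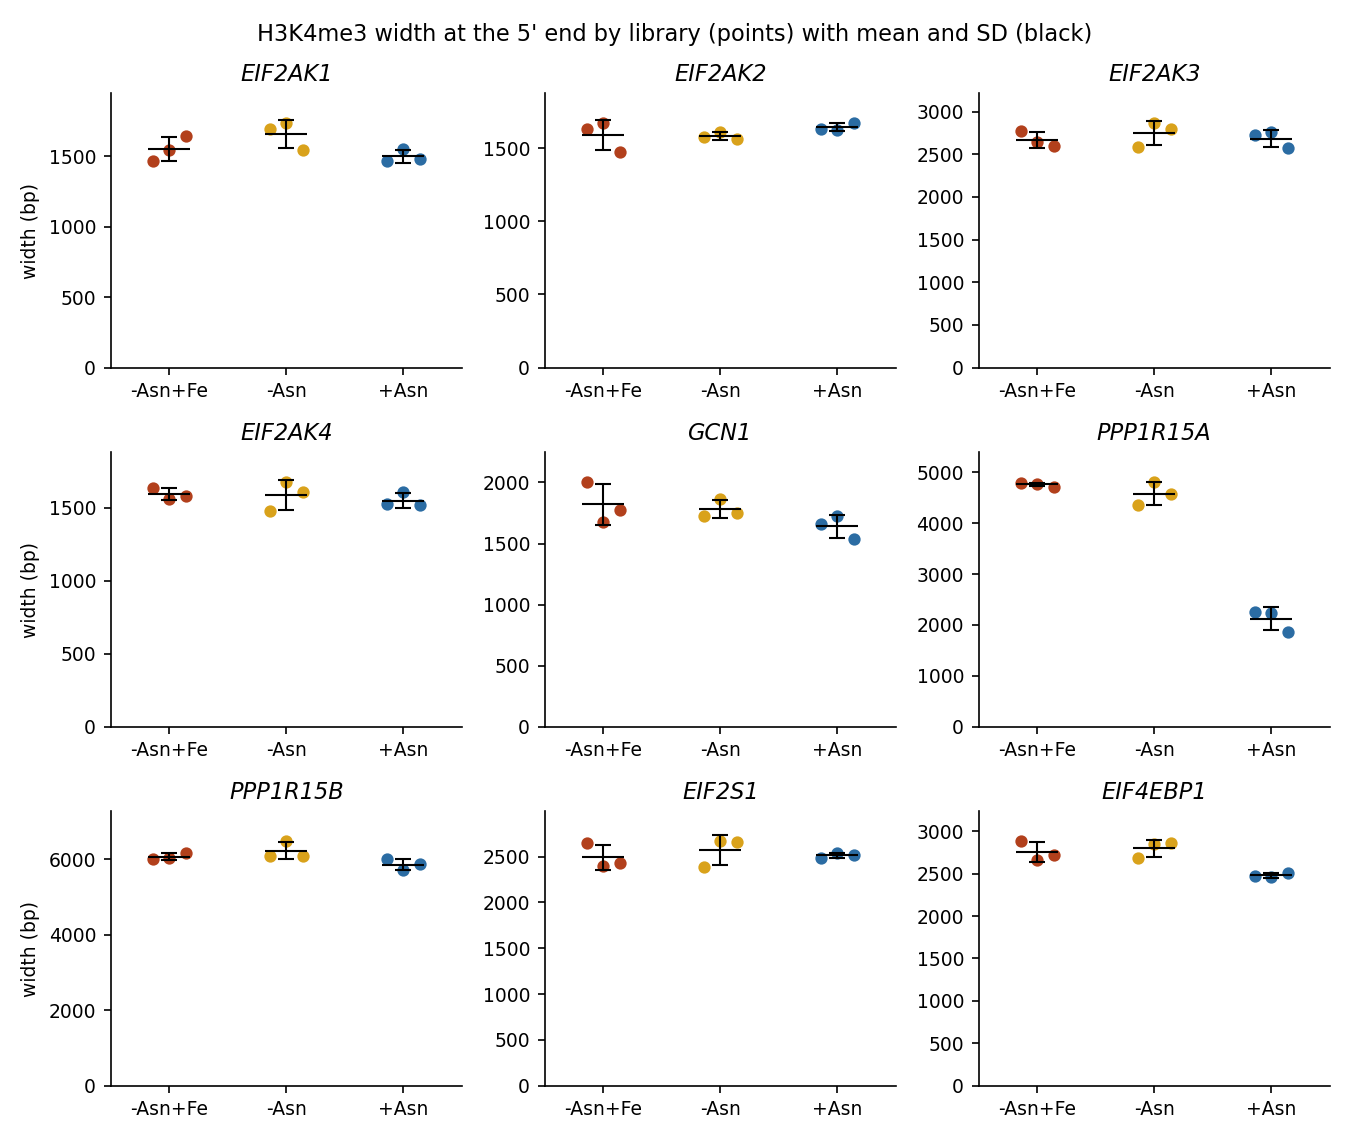
Width of the H3K4me3 region at the 5′ end (bp under peaks, linear axis from 0) of each of the 9 genes in each library of -Asn+Fe, -Asn and +Asn, with mean and SD. PPP1R15A has 4356 to 4814 bp in the 6 libraries without asparagine and 1869 to 2260 bp in +Asn, and the other genes show far smaller differences.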

How the data were processed

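The authors deposited raw gene counts for the RNA libraries, on hg38. The submitters' processing notes name STAR (version 2.7.2a) and, for counting, featureCounts from Subread (version 1.6.5). How strand and multi-mapping reads were treated is not stated in the labels or files. The H3K4me3 table deposited by the authors holds peak positions merged over libraries, another kind of value with no read counts. For it the same notes name MACS2 (2.2.7.1), Picard (2.18.26) and Bowtie2 (2.4.4). In the deposited peak positions the +Asn libraries are called untreated. They were read as complete medium, the group with no treatment in its label.

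The test of genes was that of edgeR 4.0.16 under R 4.3.3 (TMM scaling, filterByExpr, robust quasi-likelihood fit over the 9 libraries, 3 contrasts), and an adjusted p below 0.05 over the 17939 genes tested was called. Its common biological variation was 0.0871, on 6 residual degrees of freedom. Region widths, base pairs under a region's peaks in 1 library, went as log2 values into limma 3.58.1 (trend, robust) over the 13883 regions with a peak in all 9 libraries. A region belonged to a gene if it lay within 1 kb of the gene's outer 5′ end. Both tests recovered planted changes on simulated data, under easier conditions than here. Far fewer genes were changed there than were called here, and the planted width change was larger than that called at EIF4EBP1. The simulations therefore do not show how the tests fare on these data. Promoter windows came from RefSeq (GRCh38.p14). Figures were drawn with matplotlib 3.10.9.

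The 9 genes, the 7 gene lists, the motifs and the tests were chosen with earlier results of these data known. All 9 genes are given in every comparison. Of each list, up to 3 called genes per direction averaging 1 CPM or more, those of largest change, were named for -Asn vs +Asn and up to 2 for -Asn+Fe vs -Asn, and lists of 7 genes or fewer could be named in full. Alternatives were library totals, upper-quartile or RLE factors, DESeq2 1.42.0, dropping the filter or requiring 1 CPM in 3 libraries with a mean of 5, fitting the 6 compared libraries alone, a replicate block, each library left out, outer spans and centring for widths, and a 2 kb window. Same-numbered libraries did not deviate together (correlations of -0.37 to 0.26 for RNA and -0.21 to 0.09 for widths), so the numbers were not taken as pairs. The 3 input libraries were not used here. Of the genes of like pattern, 1 is not reported here.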

Additional observations from a re-analysis of the deposited data

How the results depend on the processing

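Over 17 other settings, 321 of the 340 values of the 20 called RNA changes of the 9 genes kept direction and call, 19 lost the call and 0 changed sign. The losses were in EIF2AK2 (10) and PPP1R15A (6) in -Asn+Fe vs -Asn and in GCN1 (3) against +Asn. Of 36 values of the 3 called widths 28 kept the call and 8 lost it, 7 of them EIF4EBP1 and 1 PPP1R15A. Except where a value or the construction of a setting shows it, the cause was not tested.

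The members called in -Asn+Fe vs -Asn numbered 1 under the replicate block and 1 to 3 with each library left out, against 3. Over all genes the block gave 10769, 5155 and 11380 calls for -Asn vs +Asn, -Asn+Fe vs -Asn and -Asn+Fe vs +Asn, and over regions 1606, 0 and 1346. Among the 9 genes and their regions it ended the calls of EIF2AK2 and PPP1R15A RNA in -Asn+Fe vs -Asn and of EIF4EBP1 width in -Asn vs +Asn and changed no other. The lists were not fitted with it. The stricter filter tested fewer genes and called 7647 in -Asn+Fe vs +Asn, against 11609. It also moved the median log2 fold change of the 9 genes up by 0.12 in -Asn vs +Asn. Width calls ranged from 1160 to 2696 in -Asn vs +Asn, 0 to 1 in -Asn+Fe vs -Asn and 945 to 2167 in -Asn+Fe vs +Asn with each library left out. Without -Asn replicate 2 or 3 or +Asn replicate 3 the first was 1160, 1204 and 1236, and without -Asn+Fe replicate 1 or 3 or +Asn replicate 3 the last was 945, 1095 and 1050.

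Among the 9 genes signs turned only in values that were not called, while on the lists called falls of EIF1AX and PAIP1 in -Asn vs +Asn (log2 -0.19 and -0.20) became 0.02 and 0.0046 with library totals, and those of EIF3H and DELE1 in -Asn+Fe vs +Asn (-0.21 and -0.19) became 0.05 and 0.06. PPP1R15B RNA in -Asn vs +Asn was 0.13 with upper-quartile factors, 0.18 with library totals, 0.0934 with the stricter filter and 0.0024 with the 6 libraries compared, and EIF2S1 in -Asn+Fe vs -Asn was 0.0286, 0.0225 and 0.0253 in the first 3 of these. Centred widths in -Asn vs +Asn were -0.0559 for EIF2AK3, -0.0564 for EIF2AK4, -0.0038 for PPP1R15B and -0.0576 for EIF2S1, and in -Asn+Fe vs +Asn -0.0194 for EIF2AK1, -0.0282 for EIF2AK4 and -0.0162 for PPP1R15B. With each library left out, RNA ranged from -0.0937 to 0.0662 for PPP1R15B in -Asn vs +Asn. Between -Asn+Fe and -Asn it ranged from -0.0515 to 0.0179 for EIF2S1 and -0.17 to 0.0869 for EIF4EBP1. Widths then ranged from -0.0071 to 0.083 for EIF2AK4 in -Asn vs +Asn. In -Asn+Fe vs -Asn they ranged from -0.0306 to 0.0591 for EIF2AK2, -0.044 to 0.0461 for EIF2AK4, -0.0442 to 0.0838 for GCN1 and -0.0577 to 0.0014 for EIF4EBP1, and in -Asn+Fe vs +Asn from -0.0837 to 0.00602 for EIF2AK2, -0.0378 to 0.0152 for EIF2AK3 and -0.05995 to 0.0136 for EIF2S1. The list counts under other scalings were added after the data were seen. With a 2 kb window all 9 genes had a region.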

Other observations

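Both regions with a second start held an expressed neighbour. EIF2AK3-DT, read from the opposite strand at the EIF2AK3 start, had 3.20 ± 0.769 CPM in -Asn+Fe, 4.46 ± 0.391 CPM in -Asn and 3.56 ± 0.201 CPM in +Asn, and was called lower in -Asn+Fe vs -Asn (log2 -0.46, adjusted p = 0.0436). ATP6V1D, which encodes a subunit of the vacuolar proton pump and starts beside EIF2S1, had 24.3 ± 1.04 CPM in -Asn+Fe, 21.03 ± 0.965 CPM in -Asn and 29.8 ± 0.412 CPM in +Asn (SD, n = 3). It was lower in -Asn vs +Asn (log2 -0.50, adjusted p = 2.31e-05), where EIF2S1 was lower too, and higher in -Asn+Fe vs -Asn (log2 0.21, adjusted p = 0.0494).

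Some genes of the lists, named after their values were seen, had few or no counts. EEF1G, a subunit of the elongation factor eEF1, had 0 CPM in every group, and 99.7% of its exon bases belong to other annotated genes too. EIF4A1, the main eIF4A helicase, had 19.4 CPM in -Asn+Fe, 16.6 CPM in -Asn and 14.7 CPM in +Asn, with 48.6% of its exon bases shared. EEF1D had 4.41 CPM in -Asn+Fe, 4.94 CPM in -Asn and 2.003 CPM in +Asn, with 34.0% shared. EIF3K, IBTK and EEF1B2 had means below 1 CPM, with 0%, 0% and 16.4% shared. Their levels are uncertain, and the cause was not tested.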
